A study of Mus musculus with 12 samples.

Results

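The genes described are targets of the transcription factor p53 together with the regulators and executors of apoptosis, chosen by name from a list of 35 genes. The list was made with earlier results of these data known, so its counts beside those of all probe sets are descriptive only. Of these, 33 had at least 1 probe set annotated with a single gene symbol, giving 36 of 21780 probe sets (33 of 19934 genes), with 3 probe sets for Cflar and 2 for Birc2. The targets Bax and Gdf15 were not analysed here. The measured genes were 14 p53 targets, 6 death-promoting and 3 survival members of the BCL2 family, 5 genes of the death receptor arm, the apoptosome genes Apaf1 and Casp9, and 3 genes of the inhibitor of apoptosis (IAP) family.

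RNA from 12 cultures of mouse brain cells was read on Affymetrix arrays that cover whole transcripts, 1 array per culture. The tumour groups mGC1_GFAP, mGC2_NES and mGC3_CNP held 3 glioblastoma cultures each, and came from the Arf-/- mouse lines G/tv-a, N/tv-a and C/tv-a in that order. In these lines the promoter of Gfap, Nes or Cnp drives tv-a, the receptor that lets the avian virus RCAS infect a cell, and tumours were started in adult brain with chicken DF-1 cells releasing RCAS-PDGFB-HA, which encodes a tagged growth factor. The NSC group held 3 neural stem cell cultures from the adult subventricular zone, 1 of each line, also Arf-/-. All cultures were adherent, kept in stem cell medium and untreated. The labels call the tumour cultures biological replicates without saying that each came from its own animal, so the p-values speak for the spread among these cultures. Origin and mouse line cannot be told apart among tumours, since each group stems from a single line.

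Damaged DNA or an active oncogene stabilises p53, which then switches on genes that arrest the cell cycle, repair DNA, dampen p53 itself or kill the cell. Mdm2 marks p53 for destruction, and Arf, the protein missing from all these mice, holds Mdm2 back. Death proceeds along an intrinsic route, in which BCL2 family proteins open the mitochondrial membrane and Apaf1 activates caspase 9, and along an extrinsic route, in which receptors such as Fas recruit Fadd and caspase 8. IAP proteins restrain caspases and shape signalling from receptors of the TNF family.

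Values are log2 signals after robust multi-array averaging (RMA), and array medians lay between 7.60 and 7.66. Correlations between arrays of 1 group were 0.991 to 0.996. Transcripts of the sperm-forming cells (Odf1, Prm2, Tnp1 and Tnp2), treated as absent here, read 5.60 to 7.42, so a difference whose lower mean lay at or below 7.42 is given as a lower bound, and one with both means there only as a difference of readings. The NSC culture of the G/tv-a line carried the X inactivation transcript Xist at 11.9 and also the Y-linked transcripts Eif2s3y, Kdm5d and Uty at 9.16, 8.06 and 7.94. The culture mGC2_NES replicate 2 had Xist at 9.27 and Eif2s3y at 4.26. All mGC3_CNP cultures and the C/tv-a NSC culture had Xist at 11.9 to 12.6 and Eif2s3y at 4.47 to 4.96. The reverse held in mGC1_GFAP replicates 1 and 2, mGC2_NES replicates 1 and 3 and the N/tv-a NSC culture (Xist 5.40 to 5.67, Eif2s3y 9.07 to 9.94). In mGC1_GFAP replicate 3 they read 12.6 and 4.37. These transcripts thus varied with group and line, and their link to the differences was not tested. Without the G/tv-a NSC culture 20 of the 36 probe sets differed between tumour and NSC cultures (32.7% of all probe sets), and without mGC2_NES replicate 2 the count was 21 (35.5% of all).

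Among these probe sets, chosen with earlier results known, lower readings in tumour than in NSC cultures outnumbered higher ones. In limma, 21 of 36 probe sets passed at an adjusted p under 0.05, against 36.7% of all probe sets. Of these, 2 rose (genes Rrm2b and Sesn1) and 19 fell (17 genes), against 17.6% higher and 19.2% lower among all probe sets. The median difference, tumour minus NSC, was -0.39 on the log2 scale over the 36 probe sets and 0.01 over all 21780. The arrays of both sides did not overlap for 18 of the 36, against 27.3% of all probe sets, and all 18 passed the test. The other 3 that passed, Mdm2, Plk2 and Bak1, overlapped in at least 1 array.

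By role, 6 of 7 probe sets of the death receptor arm fell (4 of 5 genes, with 3 probe sets for Cflar), with a median difference of -0.97. Of these, Fas and Cflar probe set 2 had both means below 7.42 and are differences of readings only. Over all probe sets, 19.2% fell and 17.6% rose. Of the 14 genes counted as p53 targets, 6 fell and 2 rose, with a median of -0.30. The p53 targets Tnfrsf10b, Pmaip1 and Bbc3 are counted under other roles. Of the death-promoting BCL2 members 4 of 6 fell (median -0.36), and of the survival members 2 of 3 fell (median -0.42). Apaf1 fell and Casp9 did not pass. None of the 4 IAP probe sets passed in limma, and 0 had an unadjusted p under 0.05, against 43.8% of all probe sets (median -0.03). Birc3 and Birc2 probe set 2 had both means below 7.42, so a change of these transcripts could have gone unread.

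Cell type markers moved along the same comparison, and their part in these differences was not tested. The mean over 6 oligodendrocyte precursor markers was 12.6 to 12.8 in tumour arrays and 10.1 to 10.3 in NSC arrays, and 4 of them rose. The mean over 6 astrocyte markers was 7.42 to 8.09 in tumour arrays and 10.4 to 10.7 in NSC arrays. Of these 5 fell and 1 rose, with Gfap, Aldh1l1, Aqp4 and Gja1 at or below 7.42 in tumours. The mean over 6 neural stem cell markers was 9.21 to 9.79 in tumour arrays and 11.3 to 11.5 in NSC arrays. Of these 4 fell, with Prom1 and Egfr at or below 7.42 in tumours. Microglial markers averaged 6.30 to 6.47 in tumour arrays and 6.45 to 6.57 in NSC arrays, and 5 of 6 lay at or below 7.42 on both sides. Neuronal, endothelial and pericyte or fibroblast lists averaged 7.36 to 8.38, 6.72 to 7.07 and 6.23 to 6.66 in tumour arrays, against 7.44 to 8.02, 6.81 to 6.93 and 6.70 to 6.83 in NSC arrays. In bulk cultures, fewer cells of a type and less RNA per cell cannot be told apart.

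**Figure D1:**
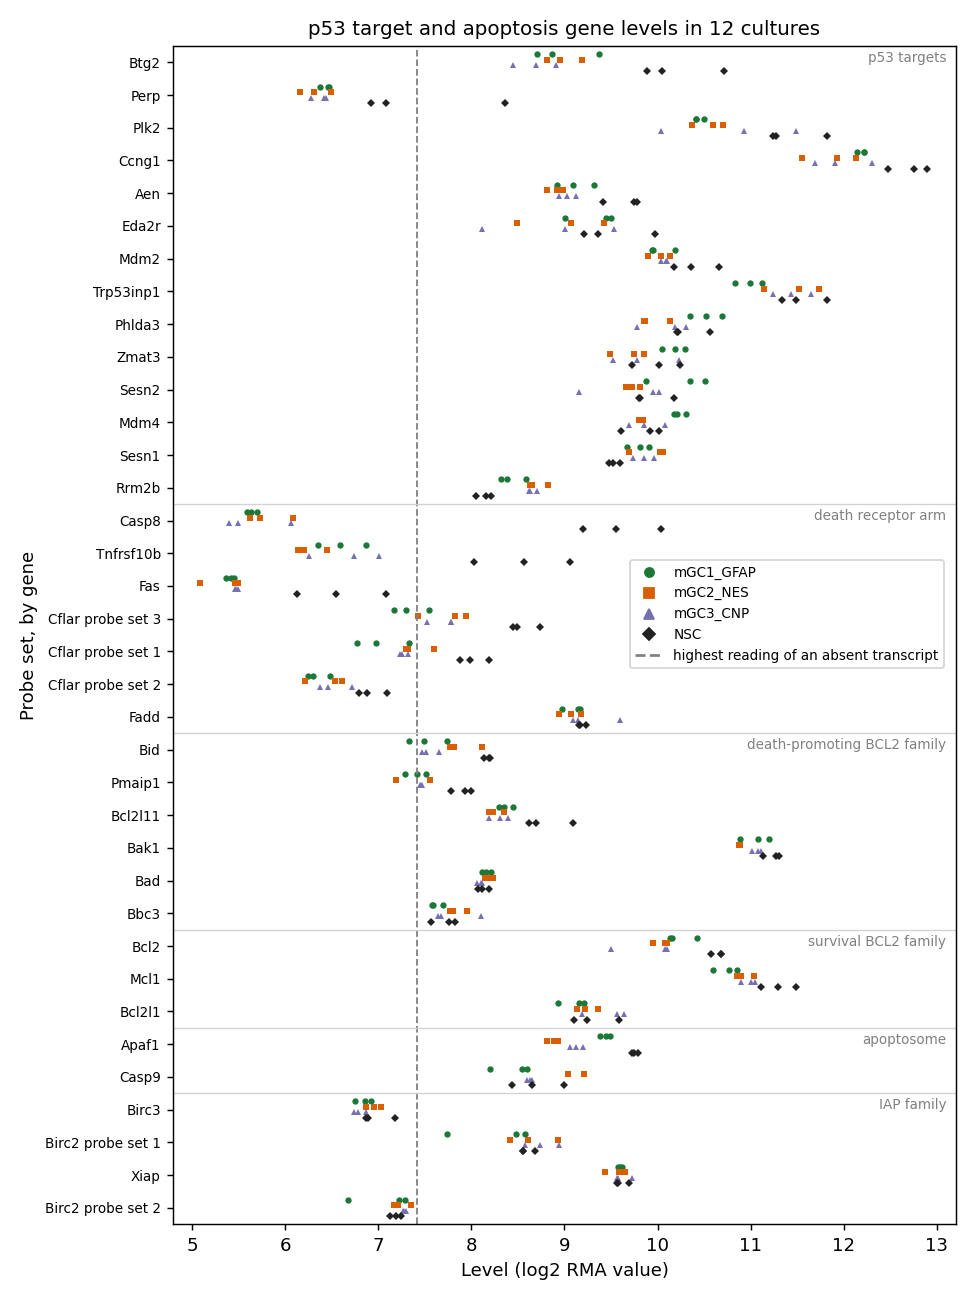
Level of each of the 36 probe sets (log2 RMA value, horizontal) in all 12 cultures, grouped by role. Each point is 1 culture, coloured by group, and the dashed line marks 7.42, the top reading among transcripts treated as absent. Casp8 reads 5.39 to 6.09 in the 9 tumour cultures and 9.20 to 10.04 in the 3 NSC cultures, the widest gap in the plot.

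The death receptor genes Casp8, Tnfrsf10b and Cflar fell in tumour cultures, Fas differed in readings only, and Casp8 had the largest difference of the 36 probe sets. Casp8, the initiator caspase recruited to death receptors, read 5.59, 5.63 and 5.70 in mGC1_GFAP, 5.73, 5.63 and 6.09 in mGC2_NES, 5.39, 5.49 and 6.06 in mGC3_CNP, and 10.04, 9.55 and 9.20 in the C/tv-a, N/tv-a and G/tv-a NSC cultures. All 9 tumour cultures lay below 7.42, the top of the absent transcripts, and every NSC culture lay above it. The difference was -3.90 ± 0.18 (SE; limma adjusted p = 1.63e-08), an estimated 14.9-fold lower reading in tumours, and the 95% interval ran from -4.28 to -3.51. The estimate is a lower bound only in that tumour readings lay below 7.42. The annotated start of Casp8 lies on chromosome 1, and its promoter at chr1:58802252-58802551 (GRCm38.p6, plus strand, RefSeq) is shown as the start of the gene with the largest difference, with each CG in capitals.
Casp8: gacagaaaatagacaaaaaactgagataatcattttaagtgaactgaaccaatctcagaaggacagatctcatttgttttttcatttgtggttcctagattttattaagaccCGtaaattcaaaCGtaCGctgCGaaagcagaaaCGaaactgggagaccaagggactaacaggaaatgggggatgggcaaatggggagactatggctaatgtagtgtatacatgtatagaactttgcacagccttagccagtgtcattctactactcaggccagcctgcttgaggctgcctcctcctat
It holds 5 CG dinucleotides, against a median of 7 per promoter over all 32851 promoters of the table, 94.6% of which hold at least 1. Its GC content is 42%.

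Tnfrsf10b, a receptor for the death ligand TRAIL and itself a p53 target, read 6.35, 6.59 and 6.87 in mGC1_GFAP, 6.13, 6.45 and 6.20 in mGC2_NES, 6.25, 7.01 and 6.73 in mGC3_CNP, and 8.56, 9.06 and 8.03 in the C/tv-a, N/tv-a and G/tv-a NSC cultures. No tumour culture came within the NSC range, and all tumour cultures lay below 7.42. The difference was -2.04 ± 0.20 (SE; limma adjusted p = 1.15e-05), an estimated 4.11-fold lower reading and a lower bound in the same sense. Fas, the receptor for Fas ligand, ranged from 5.08 to 5.49 in tumour cultures with a median of 5.46, and read 6.54, 7.08 and 6.13 in the C/tv-a, N/tv-a and G/tv-a NSC cultures. The groups did not overlap, and the readings differed by -1.17 ± 0.16 (SE; limma adjusted p = 9.95e-05). Both means of Fas lay below 7.42, so its presence was not shown on either side and the size of its change is not known.

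Cflar encodes a caspase 8 relative without protease activity that competes for the receptor complex, and it lies beside Casp8 on chromosome 1 with 0 protein-coding genes between them. All of its 3 probe sets fell. Probe set 3, with a tumour mean of 7.59, read 7.54, 7.29 and 7.17 in mGC1_GFAP, 7.82, 7.43 and 7.94 in mGC2_NES, 7.78, 7.78 and 7.53 in mGC3_CNP, and 8.49, 8.73 and 8.45 in the C/tv-a, N/tv-a and G/tv-a NSC cultures. Tumour and NSC cultures did not overlap in it, and the mGC1_GFAP cultures lay lowest on average. Its difference was -0.97 ± 0.12 (SE; limma adjusted p = 4.93e-05), and that of probe set 1 was -0.78 ± 0.11, a lower bound. Probe set 2 had both means below 7.42, and its readings differed by -0.49 ± 0.10. Fadd, the adaptor between receptor and caspase 8, was the member of this arm that did not pass. It read 8.94 to 9.59 with a median of 9.14 in tumour cultures and 9.23, 9.16 and 9.17 in NSC cultures, a difference of -0.04 with a 95% interval from -0.26 to 0.17 (limma adjusted p = 0.792).

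**Figure D2:**
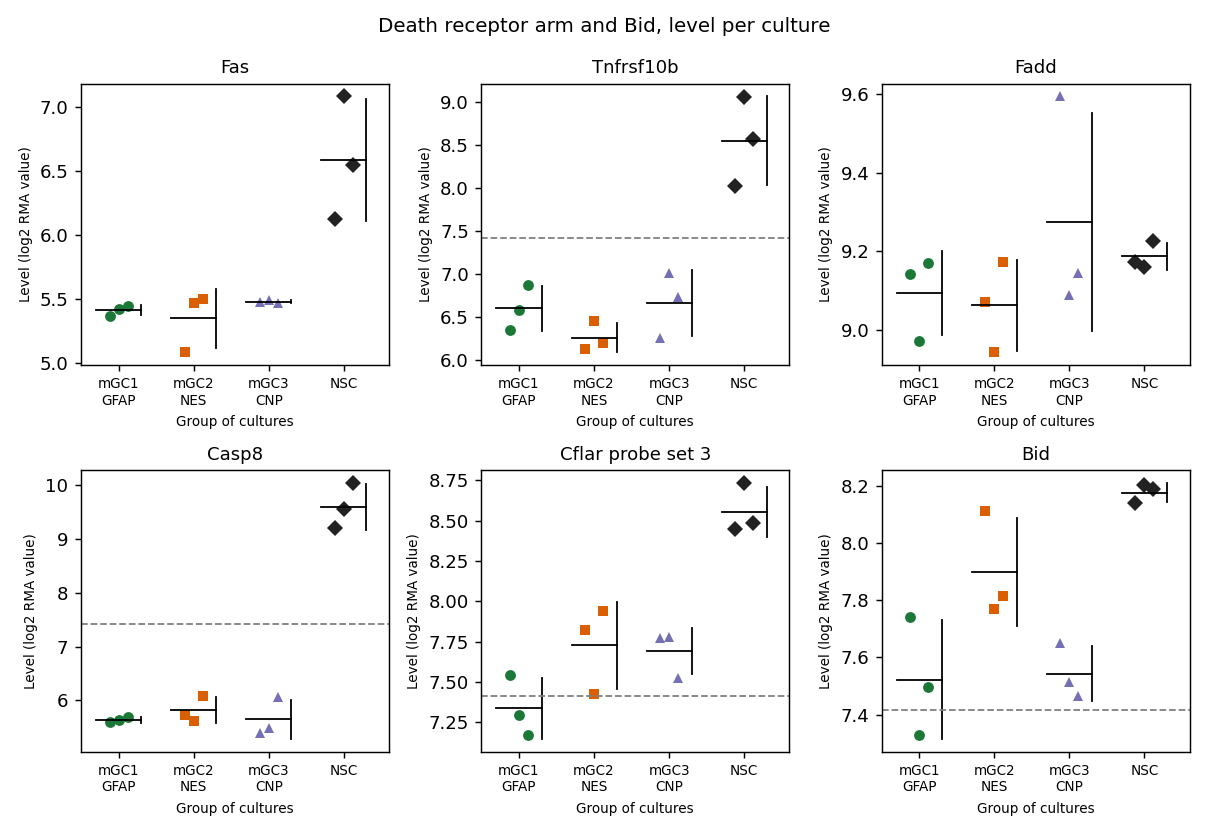
Level per culture (log2 RMA value, vertical) of Fas, Tnfrsf10b, Fadd, Casp8, Cflar probe set 3 and Bid in the 4 groups. Points are cultures, horizontal lines group means, vertical bars ± 1 SD (n = 3 each) and the dashed line 7.42. Tnfrsf10b averages 6.51 in tumour and 8.55 in NSC cultures, while Fadd averages 9.14 in tumour and 9.19 in NSC cultures.

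Among the 14 genes counted as p53 targets, Btg2, Perp, Plk2, Ccng1, Aen and Mdm2 fell, and Rrm2b and Sesn1 rose. Btg2, an antiproliferative gene, read 8.70, 8.87 and 9.37 in mGC1_GFAP, 8.81, 8.95 and 9.19 in mGC2_NES, 8.91, 8.69 and 8.45 in mGC3_CNP, and 10.04, 9.89 and 10.72 in the C/tv-a, N/tv-a and G/tv-a NSC cultures. The groups did not overlap, with the G/tv-a NSC culture highest. The difference was -1.33 ± 0.18 (SE; limma adjusted p = 1.35e-04), 2.52-fold lower in tumours.

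Perp, a membrane protein gene that p53 induces during apoptosis, ranged from 6.16 to 6.49 in tumour cultures with a median of 6.41, and read 8.36, 7.08 and 6.92 in the C/tv-a, N/tv-a and G/tv-a NSC cultures. All tumour values lay below all NSC values, and the C/tv-a NSC culture stood above the other NSC cultures. The difference was -1.08 ± 0.23 (SE; limma adjusted p = 0.00311), a lower bound, and without the C/tv-a NSC culture, where all readings lay below 7.42, it was -0.62 (adjusted p = 4.04e-04). Aen, a nuclease gene that p53 induces in apoptosis, ranged from 8.82 to 9.32 in tumour cultures with a median of 8.98, and read 9.78, 9.75 and 9.41 in the C/tv-a, N/tv-a and G/tv-a NSC cultures. Its groups did not overlap, and the difference was -0.63 ± 0.10 (SE; limma adjusted p = 3.13e-04).

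Ccng1 encodes cyclin G1, which takes part in feedback on p53 through Mdm2. It ranged from 11.56 to 12.30 in tumour cultures with a median of 12.13, and read 12.75, 12.89 and 12.47 in the C/tv-a, N/tv-a and G/tv-a NSC cultures. The groups did not overlap, with a difference of -0.70 ± 0.14 (SE; limma adjusted p = 0.00206).

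Plk2, a stress-induced polo-like kinase gene, ranged from 10.04 to 11.49 in tumour cultures with a median of 10.50, and read 11.24, 11.82 and 11.28 in the C/tv-a, N/tv-a and G/tv-a NSC cultures. The mGC3_CNP replicate 3 culture, at 11.49, lay within the NSC range. The difference was -0.84 ± 0.23 (SE; limma adjusted p = 0.0144), and without the N/tv-a NSC culture it was -0.65 and no longer passed (adjusted p = 0.0904). Mdm2, the main brake on p53 and itself a p53 target, ranged from 9.89 to 10.18 in tumour cultures with a median of 10.04, and read 10.36, 10.66 and 10.18 in the C/tv-a, N/tv-a and G/tv-a NSC cultures. The highest tumour culture and the lowest NSC culture met at 10.18. The difference was -0.36 ± 0.10 (SE; limma adjusted p = 0.0108), and without the N/tv-a NSC culture it was -0.23 and no longer passed (adjusted p = 0.072).

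Rrm2b, a ribonucleotide reductase subunit that supplies nucleotides for DNA repair, read 8.39, 8.32 and 8.59 in mGC1_GFAP, 8.63, 8.65 and 8.82 in mGC2_NES, 8.63, 8.71 and 8.62 in mGC3_CNP, and 8.21, 8.05 and 8.15 in the C/tv-a, N/tv-a and G/tv-a NSC cultures. Every tumour culture lay above every NSC culture, with a difference of 0.46 ± 0.07 (SE; limma adjusted p = 2.84e-04). Sesn1, a sestrin that restrains mTORC1 under stress, ranged from 9.68 to 10.06 in tumour cultures with a median of 9.85, and read 9.52, 9.48 and 9.60 in the C/tv-a, N/tv-a and G/tv-a NSC cultures. The groups did not overlap here either, with a difference of 0.33 ± 0.08 (SE; limma adjusted p = 0.00973).

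The other 6 of the 14 genes counted as p53 targets did not pass. The sestrin Sesn2 differed by -0.04, the p53 inhibitor gene Mdm4 by 0.13, and the RNA-binding zinc finger gene Zmat3 by -0.09. Phlda3, which opposes Akt, differed by -0.14, the stress protein gene Trp53inp1 by -0.25 and the ectodysplasin A2 receptor gene Eda2r by -0.45. Eda2r had the widest interval of the members, from -1.07 to 0.17, and its tumour cultures spread from 8.11 to 9.54.

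Promoters of Ccng1, Mdm2, Aen and Sesn1 are shown because these targets changed and hold the p53 half-site, a palindromic motif of 10 bases searched on both strands, within 250 bases before to 50 after an annotated start. They are from RefSeq on GRCm38.p6, printed 5′ to 3′ along the gene's strand with the half-site in capitals. Ccng1 is at chr11:40755237-40755536 (minus strand), Mdm2 at chr10:117710709-117711008 (minus strand), Aen, from its second annotated start, at chr7:78895808-78896107 (plus strand), and Sesn1, from its second annotated start, at chr10:41887189-41887488 (plus strand).
Ccng1: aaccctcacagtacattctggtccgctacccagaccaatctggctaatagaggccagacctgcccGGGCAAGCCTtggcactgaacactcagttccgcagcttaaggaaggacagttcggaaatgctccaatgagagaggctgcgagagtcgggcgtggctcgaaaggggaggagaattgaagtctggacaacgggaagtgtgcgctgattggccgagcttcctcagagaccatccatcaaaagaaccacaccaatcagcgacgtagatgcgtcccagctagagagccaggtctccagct
Mdm2: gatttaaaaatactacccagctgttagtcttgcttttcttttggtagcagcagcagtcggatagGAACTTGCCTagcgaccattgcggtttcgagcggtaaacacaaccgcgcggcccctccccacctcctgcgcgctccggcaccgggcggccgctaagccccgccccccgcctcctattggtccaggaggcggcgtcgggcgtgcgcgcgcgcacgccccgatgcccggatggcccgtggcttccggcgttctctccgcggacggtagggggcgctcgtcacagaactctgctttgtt
Aen: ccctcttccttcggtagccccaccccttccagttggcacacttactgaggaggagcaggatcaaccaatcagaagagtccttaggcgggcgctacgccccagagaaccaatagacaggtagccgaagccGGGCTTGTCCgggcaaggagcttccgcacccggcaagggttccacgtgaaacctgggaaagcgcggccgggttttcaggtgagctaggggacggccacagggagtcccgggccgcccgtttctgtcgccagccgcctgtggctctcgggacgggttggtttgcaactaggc
Sesn1: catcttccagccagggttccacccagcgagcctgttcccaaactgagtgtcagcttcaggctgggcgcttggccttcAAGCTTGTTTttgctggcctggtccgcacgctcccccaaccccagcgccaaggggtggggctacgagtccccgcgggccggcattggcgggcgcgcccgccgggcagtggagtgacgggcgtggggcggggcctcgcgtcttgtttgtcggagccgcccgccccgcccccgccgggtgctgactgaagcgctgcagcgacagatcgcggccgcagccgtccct
The half-site begins at position -185 from the start in Ccng1, -186 in Mdm2, -121 in Aen and -173 in Sesn1. Of the members, 27 had a total of 39 promoters in the table. The motif was found in 6 of these promoters (15.4%, 5 genes, Birc2 among them), against 8.36% of all 32851 promoters. The 2 promoters of Aen overlap and hold the same site, which is counted in both. The promoters of Btg2 and Plk2, which also fell, held 0 half-sites. A pair of exact half-sites 0 to 13 bases apart was found in 0 member promoters and in 0.0731% of all promoters. No mismatch was allowed in a half-site, so p53 elements with an imperfect half-site were not searched for. Ccng1, Mdm2 and Aen fell, Sesn1 rose and neither probe set of Birc2 passed, so genes with the motif in this window lay in all 3 classes.

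**Figure D3:**
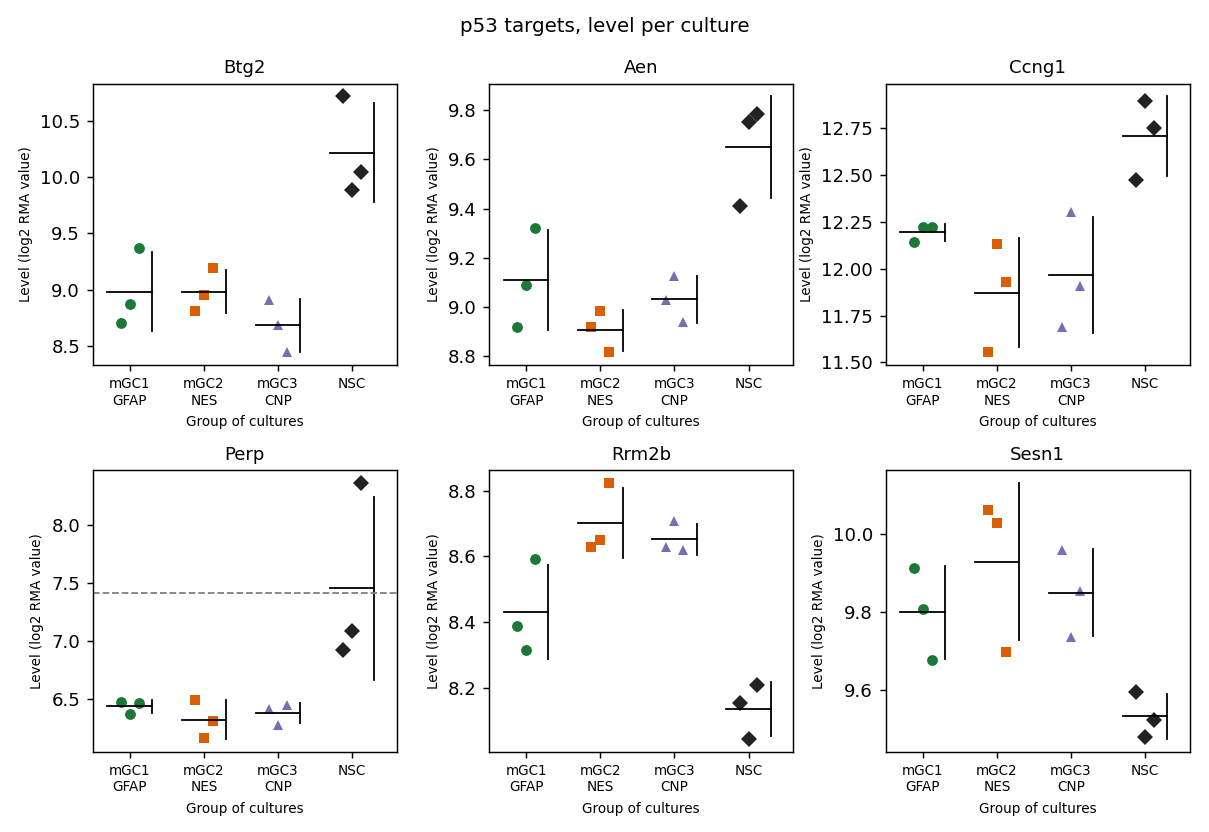
Level per culture (log2 RMA value, vertical) of the p53 targets Btg2, Aen, Ccng1, Perp, Rrm2b and Sesn1 in the 4 groups. Points are cultures, horizontal lines group means, vertical bars ± 1 SD (n = 3 each) and the dashed line 7.42. Btg2, Aen, Ccng1 and Perp are lower in all 9 tumour cultures than in any NSC culture, and Rrm2b and Sesn1 are higher.

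In the BCL2 family, members on both sides of the balance fell by moderate amounts. Bid, which caspase 8 cleaves to carry the death signal to mitochondria, ranged from 7.33 to 8.11 in tumour cultures with a median of 7.65, and read 8.19, 8.20 and 8.14 in the C/tv-a, N/tv-a and G/tv-a NSC cultures. The mGC2_NES replicate 1 culture, at 8.11, came closest to the NSC cultures without reaching them. The difference was -0.52 ± 0.09 (SE; limma adjusted p = 8.64e-04).

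Pmaip1, the BH3-only p53 target also called Noxa, ranged from 7.19 to 7.56 in tumour cultures with a median of 7.45, and read 7.93, 8.00 and 7.79 in the C/tv-a, N/tv-a and G/tv-a NSC cultures. The groups did not overlap, and the difference of -0.51 ± 0.08 (SE; limma adjusted p = 5.33e-04) is a lower bound. Bcl2l11, the BH3-only gene for Bim, ranged from 8.19 to 8.45 in tumour cultures with a median of 8.31, and read 8.69, 8.61 and 9.09 in the C/tv-a, N/tv-a and G/tv-a NSC cultures. It differed by -0.49 ± 0.09 (SE; limma adjusted p = 0.00129), again with no overlap.

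Bak1, a pore-forming effector, ranged from 10.87 to 11.20 in tumour cultures with a median of 11.01, and read 11.28, 11.13 and 11.30 in the C/tv-a, N/tv-a and G/tv-a NSC cultures. The mGC1_GFAP replicate 1 culture, at 11.20, lay above the N/tv-a NSC culture. The difference of -0.24 ± 0.07 (SE; limma adjusted p = 0.016) no longer passed without the C/tv-a NSC culture (-0.22, adjusted p = 0.0715) or without the G/tv-a NSC culture (-0.20, adjusted p = 0.0795). The BH3-only genes Bbc3, also called Puma and a classical p53 target, and Bad did not pass, at 0.04 (95% interval -0.17 to 0.25) and 0.03 (-0.08 to 0.13).

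Of the survival members, Bcl2 ranged from 9.50 to 10.42 in tumour cultures with a median of 10.10, and read 10.68, 10.57 and 10.68 in the C/tv-a, N/tv-a and G/tv-a NSC cultures. Every tumour culture lay below every NSC culture, with a difference of -0.59 ± 0.12 (SE; limma adjusted p = 0.00185). Mcl1, a short-lived survival protein that Noxa binds, ranged from 10.59 to 11.05 in tumour cultures with a median of 10.89, and read 11.30, 11.49 and 11.11 in the C/tv-a, N/tv-a and G/tv-a NSC cultures. The groups again did not overlap, and Mcl1 differed by -0.42 ± 0.08 (SE; limma adjusted p = 0.00194). Bcl2l1, the gene for Bcl-xL, did not pass, at 8.94 to 9.64 in tumour cultures and 9.24, 9.58 and 9.10 in NSC cultures (-0.04, 95% interval -0.30 to 0.22).

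Apaf1, the scaffold of the apoptosome, read 9.38, 9.49 and 9.45 in mGC1_GFAP, 8.93, 8.81 and 8.89 in mGC2_NES, 9.13, 9.06 and 9.20 in mGC3_CNP, and 9.75, 9.72 and 9.79 in the C/tv-a, N/tv-a and G/tv-a NSC cultures. The 4 groups did not overlap with one another, with NSC highest, then mGC1_GFAP, mGC3_CNP and mGC2_NES. Tumour minus NSC was -0.60 ± 0.05 (SE; limma adjusted p = 3.05e-06). Casp9, the caspase that Apaf1 activates, did not pass (0.03, 95% interval -0.21 to 0.28). Of the IAP family, Birc2 differed by -0.04 in probe set 1 and 0.01 in probe set 2, Birc3 by -0.12, and Xiap, a direct caspase inhibitor, by -0.02. Xiap ranged from 9.43 to 9.72 in tumour cultures and read 9.69, 9.57 and 9.56 in NSC cultures, with a 95% interval of the difference from -0.15 to 0.12. Birc2 and Birc3 lie side by side on chromosome 9, and Birc3 and probe set 2 of Birc2 had both means below 7.42.

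**Figure D4:**
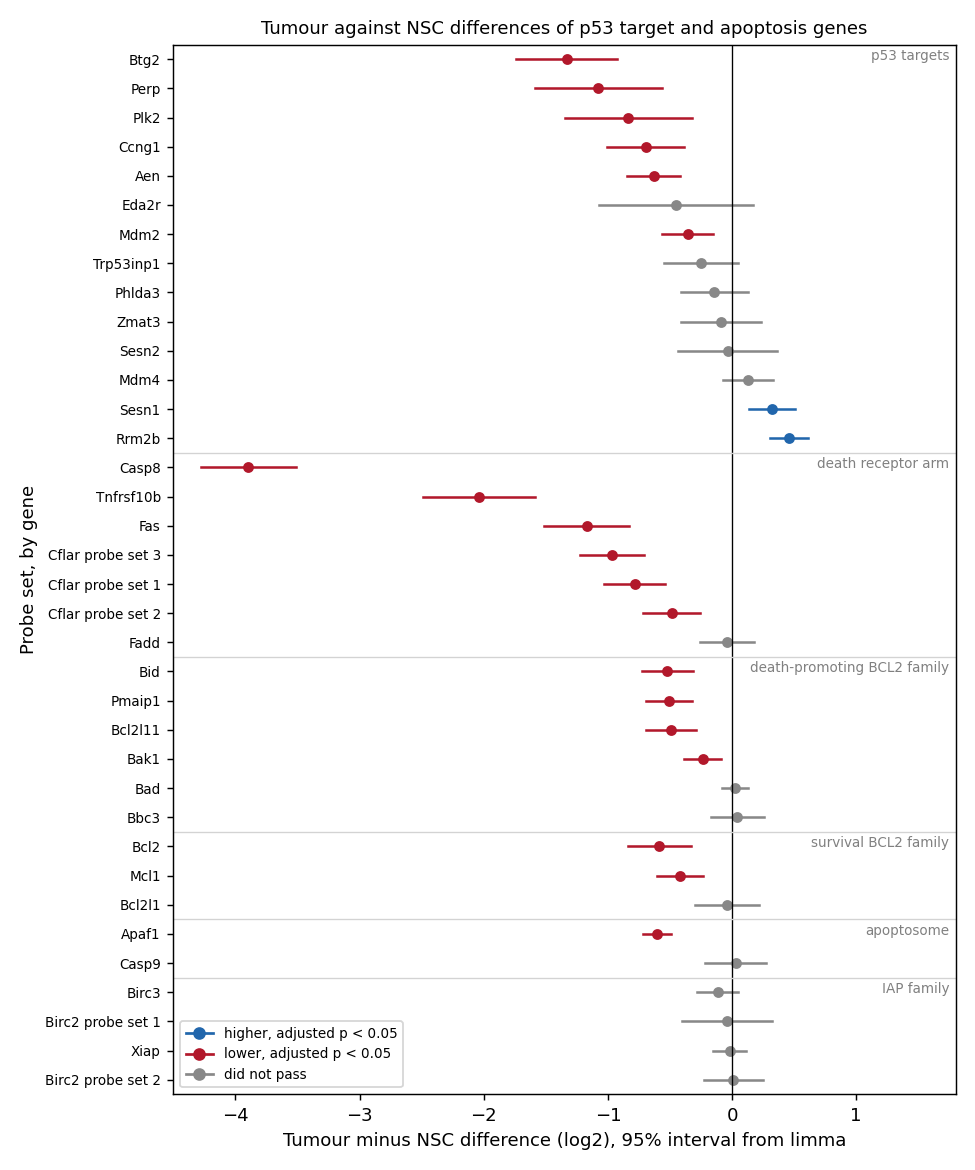
Tumour minus NSC difference (log2, horizontal) of each of the 36 probe sets, from limma, with its 95% interval, grouped by role. Red points are the 19 probe sets that were lower in tumours and blue points the 2 that were higher at an adjusted p under 0.05, and grey points are the 15 that did not pass. The interval of Casp8, from -4.28 to -3.51, lies apart from all others.

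Each tumour group was also set against the same 3 NSC arrays, which the 3 comparisons share. In mGC1_GFAP, 20 of 36 probe sets passed in limma, 2 higher and 18 lower, against 29.3% of all probe sets (13.9% higher, 15.3% lower). In mGC2_NES, 21 passed, 3 higher and 18 lower, against 34.9% (16.6% higher, 18.2% lower). In mGC3_CNP, 18 passed, 2 higher and 16 lower, against 30.3% (14.9% higher, 15.5% lower). The median differences were -0.35, -0.37 and -0.32 in that order, beside 0.0051, 0.019 and -0.0051 over all probe sets. Casp8 differed by -3.96, -3.78 and -3.95, Tnfrsf10b by -1.95, -2.29 and -1.88, and Btg2 by -1.23, -1.23 and -1.53 in mGC1_GFAP, mGC2_NES and mGC3_CNP. In each group 6 of 7 probe sets of the death receptor arm fell (4 of 5 genes). Against the NSC culture of its own line alone, 10 of the 36 passed in mGC1_GFAP (16.6% of all probe sets), 16 in mGC2_NES (22.9%) and 14 in mGC3_CNP (20.2%). In that fit each NSC culture is 1 array with no spread of its own, and the spread comes from the tumour cultures.

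Not every member that passed in tumours as a whole passed in each group. Bak1 passed in mGC2_NES alone, and Mdm2 and Plk2 did not pass in mGC3_CNP. Bcl2 and Sesn1 did not pass in mGC1_GFAP, nor Bid in mGC2_NES. Some other members passed in a single tumour group against NSC and not in tumours as a whole. Trp53inp1 differed by -0.56 ± 0.17 (SE; limma adjusted p = 0.0241) and Mdm4 by 0.39 ± 0.11 (SE; limma adjusted p = 0.0236) in mGC1_GFAP. Neither passed without the N/tv-a NSC culture, at -0.43 (adjusted p = 0.0978) for Trp53inp1 and 0.27 (adjusted p = 0.0904) for Mdm4, or with own-line NSC alone, at -0.36 (adjusted p = 0.357) and 0.31 (adjusted p = 0.161). Trp53inp1 also lost its call without mGC1_GFAP replicate 1 (limma adjusted p = 0.0876) or 3 (0.0562), and Mdm4 without mGC1_GFAP replicate 2 (limma adjusted p = 0.0529) or 3 (0.0794). Casp9 differed by 0.41 ± 0.14 (SE; limma adjusted p = 0.0375) in mGC2_NES, and this call was lost in 9 of 17 alternatives. It did not pass without the C/tv-a NSC culture (0.39, adjusted p = 0.0976) or the G/tv-a NSC culture (0.28, adjusted p = 0.146), or with own-line NSC alone (0.11, adjusted p = 0.683). Nor did Casp9 pass with arrays centred on their medians (limma adjusted p = 0.052), or when mGC2_NES replicates 1, 2 and 3 were left out in turn (0.0601, 0.126 and 0.063). The same held on leaving out mGC3_CNP replicate 2 (limma adjusted p = 0.0507) and, in another fit, its replicate 3 (0.0501). Whether such a difference from NSC itself differs between tumour groups is what the comparisons among tumour groups test.

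Few of these genes, as of all probe sets, passed between tumours of different origin. Between mGC1_GFAP and mGC2_NES, 3 of 36 probe sets passed in limma, 2 higher and 1 lower, against 6.13% of all probe sets (3.12% higher, 3.02% lower), and 10 had an unadjusted p under 0.05, against 20.6% of all. Between mGC1_GFAP and mGC3_CNP 0 passed (0.487% of all probe sets), with 9 at an unadjusted p under 0.05 (12.9% of all), and between mGC2_NES and mGC3_CNP 0 passed (0.459%), with 4 at an unadjusted p under 0.05 (13.3% of all). In the moderated F test over the 3 groups, 2 passed, Apaf1 (limma adjusted p = 0.0101) and Casp9 (limma adjusted p = 0.0244), against 4.05% of all probe sets, and 9 had an unadjusted p under 0.05, against 19.5% of all.

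The apoptosome pair moved in opposite directions between these groups. Apaf1 averaged 9.44 ± 0.06 in mGC1_GFAP and 8.88 ± 0.06 in mGC2_NES (SD, n = 3 each), a difference of 0.56 ± 0.07 (SE; limma adjusted p = 0.00452). Casp9 read 8.59, 8.54 and 8.20 in mGC1_GFAP, 9.04, 9.21 and 9.04 in mGC2_NES, 8.65, 8.63 and 8.59 in mGC3_CNP, and 8.65, 8.99 and 8.43 in the C/tv-a, N/tv-a and G/tv-a NSC cultures. The mGC2_NES cultures lay above all other cultures, and the N/tv-a NSC culture, of the same line, was the highest of the NSC cultures.

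Casp9 in mGC1_GFAP minus mGC2_NES was -0.66 ± 0.11 (SE; limma adjusted p = 0.0107). Apaf1 and Casp9 passed in this pair under all 15 alternatives tried, but in the F test Casp9 did not pass without each of the 3 mGC2_NES cultures in turn. Mdm4, which binds and inhibits p53, read 10.18, 10.21 and 10.31 in mGC1_GFAP, 9.80, 9.84 and 9.83 in mGC2_NES, 10.08, 9.85 and 9.69 in mGC3_CNP, and 10.01, 9.61 and 9.92 in the C/tv-a, N/tv-a and G/tv-a NSC cultures. The mGC1_GFAP cultures lay above all others, and the N/tv-a NSC culture was the lowest of all. The difference of mGC1_GFAP from mGC2_NES was 0.41 ± 0.10 (SE; limma adjusted p = 0.039). It did not pass in 9 of 15 alternatives, with limma adjusted p-values of 0.0904, 0.0809 and 0.127 when mGC1_GFAP replicates 1, 2 and 3 were left out in turn, 0.0961, 0.0974 and 0.0953 for those of mGC2_NES, and 0.0618 for mGC3_CNP replicate 2. The other 2 were 0.0558 with all 12 arrays in the limma fit and 0.0625 with the replicate block, adjusted p-values both.

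**Figure D5:**
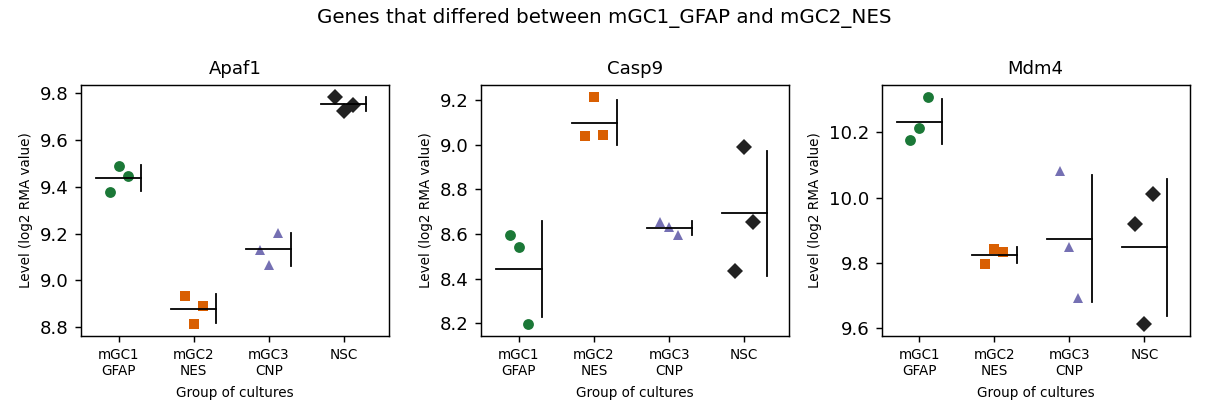
Level per culture (log2 RMA value, vertical) of Apaf1, Casp9 and Mdm4, the 3 members that differed between mGC1_GFAP and mGC2_NES, in the 4 groups. Points are cultures, horizontal lines group means and vertical bars ± 1 SD (n = 3 each). Apaf1 averages 9.44 in mGC1_GFAP and 8.88 in mGC2_NES, and Casp9 averages 8.44 in mGC1_GFAP and 9.10 in mGC2_NES.

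A line by tumour interaction asked whether tumours of different lines stood at different distances from their own line's NSC culture. Perp was the 1 member of 36 that passed (limma adjusted p = 0.0157), against 0.615% of all probe sets, and 7 had an unadjusted p under 0.05, against 9.64% of all. Perp averaged 6.43 in mGC1_GFAP beside 6.92 in the G/tv-a NSC culture, 6.32 in mGC2_NES beside 7.08 in the N/tv-a NSC culture, and 6.38 in mGC3_CNP beside 8.36 in the C/tv-a NSC culture. Each NSC value here is 1 array, assumed to vary like the tumour cultures. The tumour means and the G/tv-a and N/tv-a NSC cultures all lay below 7.42, so only the C/tv-a NSC culture read above it, and the other distances are between readings of a transcript whose presence was not shown.

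Other genes of the same pathways were counted for comparison, where 36.7% of all probe sets passed in tumour against NSC (17.6% higher, 19.2% lower). In that comparison 41.7% of probe sets of other p53 targets, 42.9% of p53 regulators and 14.3% of other BCL2 family genes passed. The shares were 42.9% for other caspases and their regulators and 52.9% for other death receptors and their partners. Of 24 probe sets of other p53 targets (23 of 26 genes), 9 fell and 1 rose, with a median of -0.19. Ddit4l, which restrains mTORC1, averaged 6.50 in tumour and 10.21 in NSC cultures, a difference of -3.71 ± 0.10 (SE; limma adjusted p = 3.15e-10) and a lower bound. The growth factor binding protein gene Igfbp3 differed by -1.41 ± 0.23, Trp53i11 by -1.63 ± 0.15 and the costimulatory ligand gene Cd80 by -1.27 ± 0.18 in probe set 1. The 1 that rose, named after its value was seen, was the sestrin Sesn3, at 11.74 in tumour and 11.08 in NSC cultures (0.66 ± 0.15). Cdkn1a, which encodes p21, was not analysed here.

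Of 14 probe sets of p53 regulators (13 genes), 5 fell and 1 rose, with a median of -0.13. The riser, Cdkn2a, the locus of Arf and p16, averaged 8.58 in tumour and 7.89 in NSC cultures (0.69 ± 0.17, limma adjusted p = 0.00793). What its probe set reads in Arf-/- cells was not checked. Of 14 probe sets of other BCL2 family genes (12 of 15 genes), 1 fell and 1 rose. They were, named after their values were seen, Bcl2l12 at -0.97 ± 0.10 and Bcl2l10 at 0.24 ± 0.09, whose means both lay below 7.42.

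Of 21 probe sets of other caspases and their regulators (19 of 22 genes), 7 fell and 2 rose, with a median of -0.13. The effector caspase gene Casp6 averaged 8.20 in tumour and 9.30 in NSC cultures (-1.10 ± 0.14, limma adjusted p = 6.99e-05). The risers, named after their values were seen, were Casp2 (0.25 ± 0.07) and Diablo (0.29 ± 0.07), whose protein relieves caspases from IAPs. Of 17 probe sets of other death receptors and their partners (17 of 18 genes), 5 fell and 4 rose, with a median of 0.03. Cyld, a deubiquitinase that restrains NF-kappaB signalling, averaged 9.80 in tumour and 8.52 in NSC cultures (1.28 ± 0.07, limma adjusted p = 8.12e-08).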

How the data were processed

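RNA of 12 cultures was hybridised to Affymetrix arrays. The authors deposited log2 values per probe set, which the submitters' processing notes credit to Affymetrix Expression Console and RMA, with versions not given in the sources used here. RMA subtracts background, sets arrays to a common distribution and summarises probes, so such values hide a change common to most genes. Values were used as deposited. Arrays hold no depth, and their number limits the precision.

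Of 28270 probe sets, 21780 had 1 symbol in the platform annotation (2016), 1617 had several and 4873 were not listed. Those 21780 were fitted in R 4.3.3 with limma 3.58.1 (lmFit, eBayes, two-sided, Benjamini-Hochberg over all 21780), on all 12 arrays for comparisons with NSC and on the 9 tumour arrays among tumours. Tumour against NSC is the mean of 3 group means minus the NSC mean. The fits were tested on simulated data. After removal of group means, same-numbered cultures of mGC2_NES and mGC3_CNP correlated at 0.132 to 0.254, each best with its own number between these groups. Those of mGC1_GFAP correlated at 0.002 to 0.254 with the other groups, 2 of 3 pairs at or under 0.1 with each. Its replicate 2 culture was best with its own number in both, at 0.107 with mGC2_NES and 0.254 with mGC3_CNP. The labels state no pairing, so the main fits took replicate numbers as names only, and a replicate block was an alternative.

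Members and lists were chosen with earlier results of these data known. Every member was named. Of other lists, genes that passed with a difference of at least 1 on the log2 scale were named, at most 4 per list, plus Cdkn1a and Cdkn2a. Alternatives varied the filter, variance prior, scaling, probe sets, mouse line, replicate block, arrays in the fit and each replicate.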

Additional observations from a re-analysis of the deposited data

Results flagged for a closer look

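Over the 9 tumour cultures, 4 of 36 probe sets had 1 culture far from the others, where chance gives such a culture about 1 time in 20. Fas read 5.08 in mGC2_NES replicate 1, below the other tumour cultures, which lay between 5.37 and 5.49, all of them readings below 7.42. Fadd read 9.59 in mGC3_CNP replicate 1, above the others, which lay between 8.94 and 9.17. Birc2 read 7.74 in probe set 1 and 6.67 in probe set 2 in the same culture, mGC1_GFAP replicate 2, low in both. These 2 flags share a gene and a culture, so they are not independent, and the reading of 6.67 lay below 7.42. The distance of Perp in tumours from NSC of the same line differed between lines (limma adjusted p = 0.0157), with the C/tv-a NSC culture at 8.36, above the N/tv-a culture at 7.08 and the G/tv-a culture at 6.92. Of all cultures only the C/tv-a NSC culture read above 7.42 in Perp, so the result rests on 1 array.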

How the results depend on the processing

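The count for tumour against NSC was 19 to 21 without each array in turn (19 without the N/tv-a NSC culture) and 20 or 21 under the other alternatives. Without each array it was 14 to 21 for mGC1_GFAP, 16 to 22 for mGC2_NES and 15 to 18 for mGC3_CNP against NSC. It was 2 to 4 for mGC1_GFAP against mGC2_NES, 0 to 0 for mGC1_GFAP against mGC3_CNP, 0 to 1 for mGC2_NES against mGC3_CNP (Casp9, without mGC1_GFAP replicate 3), 1 to 3 for any difference among tumour groups and 1 to 1 for the line by tumour interaction. With own-line NSC as the only control, 10 passed for mGC1_GFAP (16.6% of all probe sets), where 1 NSC array is used in place of 3. With the replicate block, 6 passed for mGC1_GFAP against mGC2_NES (Phlda3, Apaf1, Zmat3, Trp53inp1, Casp9 and Bid; 6.59% of all probe sets) and Mdm4 did not, and 3 passed for any difference among tumour groups (Phlda3 added). Same-numbered cultures of these groups correlated at 0.002 to 0.107 after removal of group means, 2 of 3 pairs at or under 0.1. The replicate 2 cultures, at 0.107, were each best with their own number. The labels state no pairing, so the main fit took numbers as names only, and which fit is right was not tested. The block changed no call of mGC2_NES against mGC3_CNP, whose same-numbered cultures correlated at 0.132 to 0.254. Each single-gene result was followed under 15 to 17 alternatives, giving 1 outcome per result and alternative. Of these outcomes, 1546 kept direction and call, 91 kept direction and lost the call, and 19 changed sign. The 19 all lay in genes that did not pass. Outcomes that kept the call include genes that passed in neither fit. Outside tumour against NSC, only members that passed in the main fit were followed, so calls gained there are not counted. With arrays centred on their medians, Bad was at -0.0038 and Birc2 probe set 2 at -0.019. Without each array in turn, tumour minus NSC ranged across 0 for Bcl2l1 (-0.144 to 0.098), Zmat3 (-0.221 to 0.0349), Casp9 (-0.0991 to 0.179), Sesn2 (-0.101 to 0.0875), Bbc3 (-0.0332 to 0.095), Birc2 probe sets 1 (-0.0929 to 0.0476) and 2 (-0.026 to 0.0759) and Xiap (-0.0414 to 0.0241). The number of arrays and readings near 7.42 limit what can be told apart.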

Other observations

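The genes next to Casp8 and Cflar on chromosome 1, picked after the values of both were seen, were read for the same comparison. In tumour against NSC cultures Flacc1 differed by -0.06 ± 0.08, Ndufb3 by 0.07 ± 0.11 and C2cd6 by -0.06 ± 0.05 (SE), none of which passed in limma, and both means of Flacc1 and of C2cd6 lay below 7.42. Fam126b rose by 0.99 ± 0.06 and Trak2 by 0.30 ± 0.08, and Stradb differed by -0.33 ± 0.07, all of which passed. Among genes of the wider pathways, Pml, a p53 target whose protein forms nuclear bodies and that was picked after its values were seen, averaged 9.15 ± 0.15 in mGC2_NES and 7.72 ± 0.17 in mGC3_CNP (SD, n = 3 each), a difference of 1.43 ± 0.20 (SE; limma adjusted p = 0.0205). The survivin gene Birc5, also picked after its values were seen, was higher in mGC1_GFAP than in mGC2_NES by 0.71 ± 0.12 (SE; limma adjusted p = 0.0113).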
